A study of Bos taurus with 6 samples.

Results

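The transcripts described here are those of 5 bovine genes of the egg surface: ZP2, ZP3 and ZP4, whose products build the zona pellucida, ASTL, which encodes the protease ovastacin, and IZUMO1R, which encodes the sperm receptor JUNO. They were selected by name as the zona pellucida and sperm-binding genes, on the FPKM values of all 6 libraries and with the lower ZP2 level in the libraries labelled siMTFP1 already known. All 5 were found, among 17325 genes in all. Their values in the comparison of the groups are therefore descriptions, given without a test. The libraries were made from Bos taurus oocytes at metaphase II after maturation in vitro, when the egg is ready for the sperm. Of these, 3 libraries are labelled siMTFP1, the group in which MTFP1 was to be knocked down, and 3 are labelled NC, the negative control. MTFP1 codes for an inner mitochondrial membrane protein. The labels do not give the number of oocytes in a library, the sequence or dose of the interfering RNA, or whether replicates came from separate animals or cultures, so the spread between libraries may be technical.

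The zona pellucida is a coat of glycoprotein filaments that the oocyte secretes around itself during growth. Its subunits share a polymerising ZP domain, are trimmed by furin-like proteases on their way to the surface, and in mice depend on the oocyte transcription factor FIGLA. In mice sperm bind the amino-terminal part of ZP2, and after fertilisation ovastacin, released from cortical granules, cuts ZP2 so that further sperm no longer bind. JUNO is a protein of the folate receptor family, held on the egg membrane by a glycosylphosphatidylinositol anchor, and it binds IZUMO1 on the sperm head.

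The unit is FPKM, a count of sequenced fragments divided by transcript length and by the mapped fragments of the library, and 15120 to 15533 of the 17325 genes in a library were above 0. Sequencing depth is unknown. The commonest ratio of low values differed by no more than 0.1 (log2) in 15 of 15 pairs of libraries. The deposited values are rounded, so low values can be tied, and such ties alone can give this outcome. The ratio therefore cannot decide whether the depths were alike. MTFP1 itself was near 0 and did not follow the labels: it had 0.43, 0.58 and 1.15 FPKM in the libraries labelled siMTFP1 and 0.53, 0.55 and 0.05 FPKM in those labelled NC (exact two-sided permutation test, p = 0.4, the smallest possible being 0.1). Groups are therefore named as labelled, and directions follow the labels alone. Oocyte markers were present in every library, with 14 of 14 averaging over 1 FPKM, and their mean log2(FPKM + 1) level was 8.17 to 8.26 in the libraries labelled siMTFP1 and 7.95 to 8.11 in those labelled NC. These 2 ranges did not overlap. The summed level of the oocyte markers overlapped, at 33654 to 36742 FPKM in the libraries labelled siMTFP1 and 33936 to 35815 FPKM in those labelled NC. Of 25 cumulus and granulosa markers, 16 averaged at least 1 FPKM, and their summed level was 223 to 252 FPKM in the libraries labelled siMTFP1 and 200.4 to 233 FPKM in those labelled NC. The most abundant of them were present in every library, STAR at 54.5 to 72.55 FPKM, HAS2 at 33.8 to 49.9 FPKM and EFEMP1 at 32.0 to 51.7 FPKM. The follicle-stimulating hormone receptor FSHR and the anti-Müllerian hormone receptor AMHR2, which define granulosa cells, were at 0 in 5 and 4 of the 6 libraries.

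ZP2 was the most abundant of the 5 transcripts and was lower in the libraries labelled siMTFP1 without overlap, while ZP3 and ZP4 lay at similar levels in both groups. FPKM is scaled by transcript length, so the levels of different genes can be set beside each other. ZP2 had 3111, 3053 and 3241 FPKM in the libraries labelled siMTFP1, against 4768, 4427 and 4503 FPKM in those labelled NC. The groups did not overlap, and 1186 FPKM separated the highest siMTFP1 library from the lowest NC library. The means were 3135 ± 96.3 FPKM and 4566 ± 179 FPKM (SD, n = 3 each), or -31.3%. As log2(FPKM + 1) the difference was -0.54 (SE 0.09), and it lay between -0.57 and -0.51 when any single library was left out. Within a group the coefficient of variation of ZP2 was 3.07% in the libraries labelled siMTFP1 and 3.92% in those labelled NC. By level ZP2 ranked 23, 27 and 31 among all genes in the libraries labelled siMTFP1 and 17, 19 and 20 in those labelled NC. In such bulk libraries fewer contributing cells and less RNA per cell cannot be told apart.

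**Figure D1:**
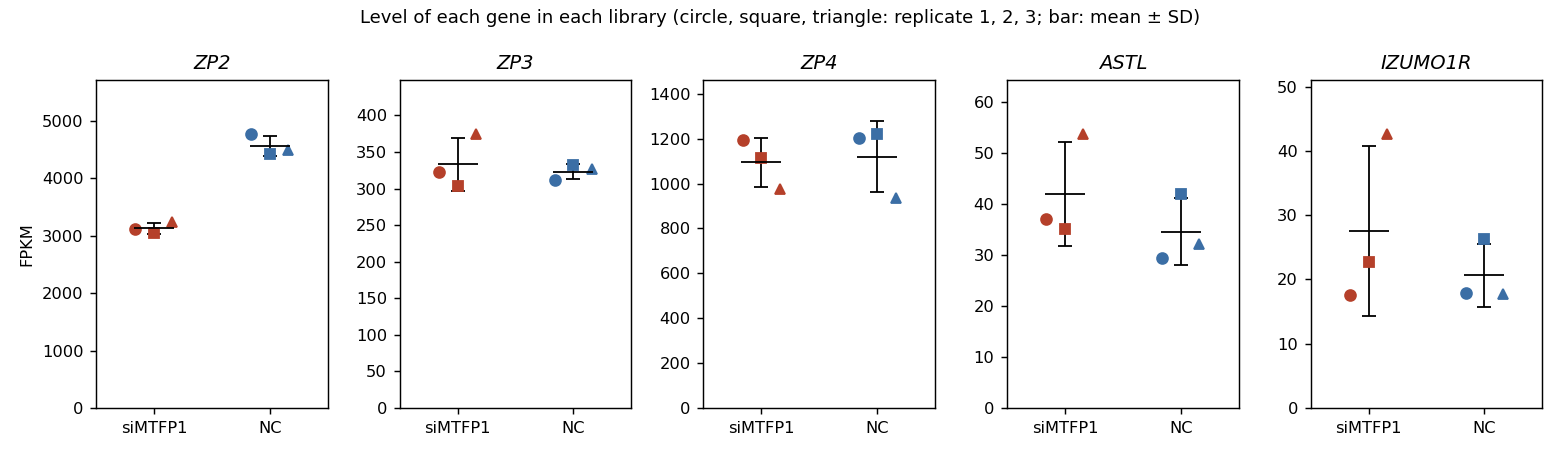
FPKM of the 5 genes (vertical axes, each from 0) in the libraries labelled siMTFP1 (left, red) and NC (right, blue). Circles, squares and triangles are replicates 1, 2 and 3, and bars are the mean ± SD of 3 libraries. The 3 siMTFP1 values of ZP2, at most 3241 FPKM, lie below the 3 NC values, at least 4427 FPKM, and the groups overlap in the other genes.

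ZP3, a filament subunit without which mice form no zona, had 322, 303 and 374 FPKM in the libraries labelled siMTFP1, against 312, 332 and 326 FPKM in those labelled NC. The highest and the lowest value both belonged to the siMTFP1 group, so the groups overlapped. The log2 difference was 0.04 (SE 0.12), and it lay from -0.05 without siMTFP1 3 to 0.10 without siMTFP1 2. ZP4, which is part of the zona in cattle and in humans but not in mice, had 1194, 1113 and 975 FPKM in the libraries labelled siMTFP1, against 1203, 1219 and 936 FPKM in those labelled NC. These ranges coincided closely, with the library of number 3 the lowest in each group. The log2 difference of ZP4 was -0.03 (SE 0.14), from -0.15 without NC 3 to 0.05 without siMTFP1 3.

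The proteins that act on or beside the coat were encoded by far scarcer transcripts. ASTL had 37.0, 35.1 and 53.6 FPKM in the libraries labelled siMTFP1, against 29.5, 42.0 and 32.2 FPKM in those labelled NC, and the groups overlapped. Its means were 41.9 ± 10.2 and 34.5 ± 6.58 FPKM (SD, n = 3 each). The log2 difference of 0.26 (SE 0.20) was 0.07 without siMTFP1 3, the library with the highest value, and 0.41 without NC 2. IZUMO1R had 17.5, 22.7 and 42.6 FPKM in the libraries labelled siMTFP1, against 18.0, 26.35 and 17.7 FPKM in those labelled NC. The library labelled siMTFP1 3 stood above the others, and the rest of both groups overlapped. The log2 difference was 0.33 (SE 0.31), and without siMTFP1 3 it was -0.03. That library also had the highest ZP3, the highest ASTL and the largest sum of FPKM over all genes (892790.4); the part of that sum in these values was not tested.

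Among the 5 genes, 1 had groups that did not overlap in the lower direction and 0 in the higher direction, where 5.05% and 5.97% of all 9730 genes tested did. The selection used this contrast, so the count carries no weight of its own. By limma with Benjamini-Hochberg adjustment 0 of the 9730 genes tested (0%) had an adjusted p under 0.05, and before adjustment 376 higher and 259 lower ones were under that limit; no other tool was run.

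**Figure D2:**
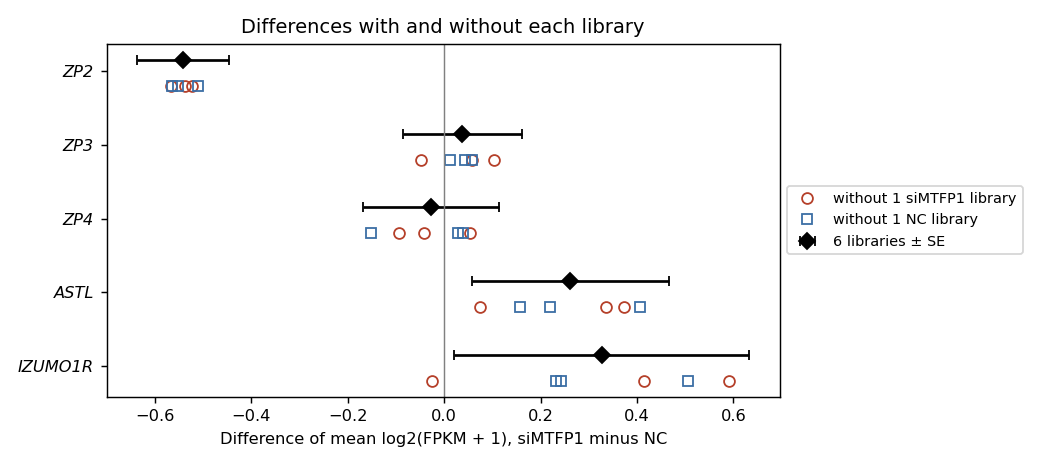
Difference of mean log2(FPKM + 1), siMTFP1 minus NC (horizontal axis), for each of the 5 genes. Black diamonds with bars are the difference over 6 libraries ± SE, red circles the values without 1 siMTFP1 library, blue squares those without 1 NC library. ZP2 stays between -0.57 and -0.51, ZP3, ZP4 and IZUMO1R cross 0, and ASTL lies between 0.07 and 0.41.

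The order of the levels was the same in all 6 libraries, namely ZP2, ZP4, ZP3, ASTL and IZUMO1R from high to low. The range of each gene over the 6 libraries lay apart from that of its neighbour in this order, except for ASTL and IZUMO1R. These overlapped in range, although within each library ASTL was the higher, by 1.26 to 2.11 times. ZP2 exceeded ZP4 by 2.60 to 4.81 times and ZP4 exceeded ZP3 by 2.61 to 3.86 times. The scarce transcripts also varied most, with coefficients of variation of 47.9% (siMTFP1) and 23.8% (NC) for IZUMO1R and of 24.3% (siMTFP1) and 19.0% (NC) for ASTL. For ZP4 they were 10.1% (siMTFP1) and 14.2% (NC), and for ZP3 11.1% (siMTFP1) and 3.18% (NC).

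Added together, the zona transcripts made up less of the libraries labelled siMTFP1. The sum of ZP2, ZP3 and ZP4 was 4628, 4469 and 4590.1 FPKM in the libraries labelled siMTFP1, against 6283, 5978 and 5766 FPKM in those labelled NC. As a share of the FPKM of all genes this was 0.545% ± 0.0397 in the libraries labelled siMTFP1 and 0.714% ± 0.0474 in those labelled NC (SD, n = 3 each). Nearly all of the gap came from ZP2, since the other 2 subunits had similar levels in both groups.

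The proportions of the subunits shifted accordingly. ZP2 made up 67.2%, 68.3% and 70.6% of the zona sum in the libraries labelled siMTFP1, against 75.9%, 74.1% and 78.1% in those labelled NC. The groups did not overlap, and the difference of the means was -7.30 percentage points, between -8.28 and -6.26 when any single library was left out. The share of ZP4 averaged 23.99% ± 2.42 in the libraries labelled siMTFP1 and 18.6% ± 2.13 in those labelled NC, while that of ZP3 averaged 7.29% ± 0.745 in the libraries labelled siMTFP1 and 5.39% ± 0.373 in those labelled NC (SD, n = 3 each). These higher shares restate the lower ZP2 level, because shares sum to the whole.

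Ratios within a library do not depend on the scaling of that library. ZP2 over ZP3 was 9.66, 10.1 and 8.67 in the libraries labelled siMTFP1, against 15.3, 13.3 and 13.8 in those labelled NC. ZP2 over ZP4 was 2.60, 2.74 and 3.32 in the libraries labelled siMTFP1, against 3.96, 3.63 and 4.81 in those labelled NC. Neither ratio overlapped between the groups. ZP4 over ZP3, which leaves ZP2 out, overlapped: it was 3.71, 3.68 and 2.61 in the libraries labelled siMTFP1 and 3.86, 3.67 and 2.87 in those labelled NC. ASTL over IZUMO1R likewise overlapped, with means of 1.64 ± 0.433 in the libraries labelled siMTFP1 and 1.68 ± 0.120 in those labelled NC (SD, n = 3 each).

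**Figure D3:**
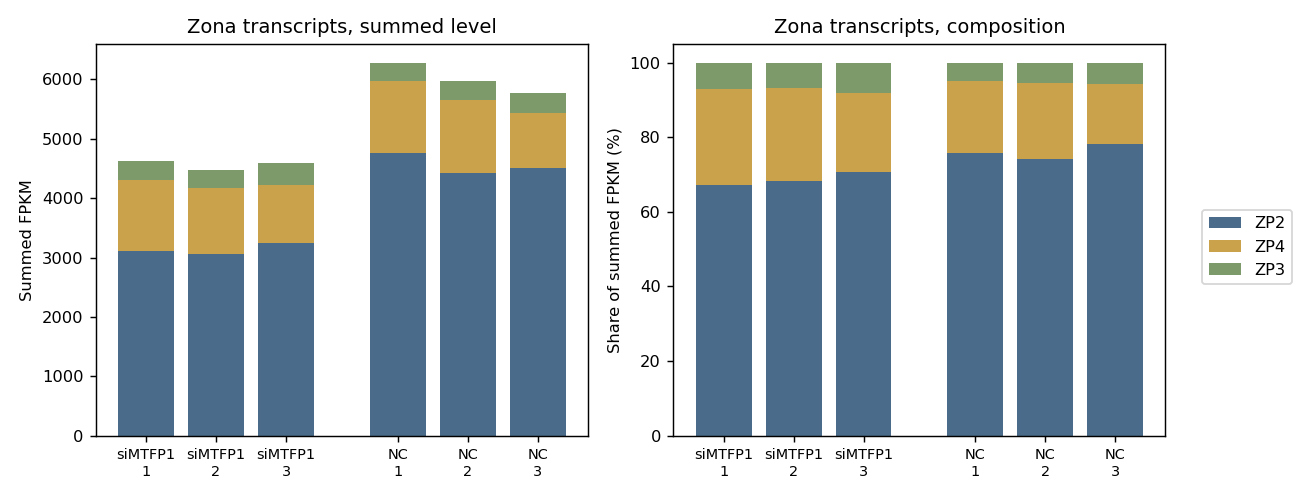
Summed FPKM of ZP2, ZP4 and ZP3 (left) and the share of each in that sum in percent (right), 1 bar per library, siMTFP1 libraries on the left of each panel. The sums reach 4628 FPKM at most in the siMTFP1 libraries and at least 5766 FPKM in the NC libraries, and the gap lies in the blue ZP2 segment.

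Set beside other abundant transcripts, ZP2 lay near the low end. It was selected with its lower level known, so this place carries no weight of its own. Besides ZP2, 121 genes had a mean of at least 1000 FPKM, a limit chosen after the values were seen. Their median log2 difference was -0.0033, with -0.24 and 0.20 at the 5th and 95th percentiles. In 1 of them, the ribosomal protein gene RPS29, the difference was below that of ZP2 (-0.57, SE 0.17). RPS29 averaged 1199 ± 272 FPKM in the libraries labelled siMTFP1 and 1767 ± 230 FPKM in those labelled NC (SD, n = 3 each), a wider spread than that of ZP2. Of the 121, the groups did not overlap in 6, 4 of them lower and 2 higher in the libraries labelled siMTFP1. Of all 9730 genes tested, 5.05% were lower and 5.97% higher without overlap.

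The neighbouring protein-coding genes with a value were at lower mean levels than the gene of the 5 they adjoin. By RefSeq (assembly ARS-UCD2.0), ZP2 lies between LDAF1, a lipid droplet assembly factor listed in the files as TMEM159, and ANKS4B. TMEM159 averaged 719 ± 89.6 FPKM in the libraries labelled siMTFP1 and 800.4 ± 65.1 FPKM in those labelled NC (SD, n = 3 each), with overlapping groups and a log2 difference of -0.16. ANKS4B averaged under 1 FPKM in both groups. SSC4D and DTX2 flank ZP3, RYR2 and CHRM3 flank ZP4, ADRA2B and DUSP2 flank ASTL, and GPR83 lies beside IZUMO1R. Of these 7 only DTX2, at 14.7 ± 0.255 FPKM in the libraries labelled siMTFP1 and 13.0 ± 1.73 FPKM in those labelled NC, averaged over 1 FPKM. The same table lists 5 transcripts for ZP2 and 1 for each of ZP3, ZP4, ASTL and IZUMO1R. The FPKM values were made on another build, ARS-UCD1.2, so these numbers do not show which transcript lengths the value of ZP2 rests on. Isoforms were not separated in the files.

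The transcripts with the profile most like each gene were sought by the root mean square difference of log2 levels over the 6 libraries, each profile centred on its mean. These profiles contain the difference between the groups. Genes matched to ZP2 were therefore bound to be lower in the libraries labelled siMTFP1, and their group levels carry no weight of their own. For ZP2 the nearest were SLC35F4 (0.076), FAM102B (0.078) and ULBP13 (0.080 on the log2 scale), all far scarcer. ULBP13, the most abundant of them, averaged 21.1 ± 2.36 FPKM in the libraries labelled siMTFP1 and 32.05 ± 3.17 FPKM in those labelled NC (SD, n = 3 each). The nearest profile was that of CHRAC1 for ZP3 (0.032), of MTPAP for ZP4 (0.014), of DNASE2 for ASTL (0.017) and of EIF2D for IZUMO1R (0.097). The search covered 9265 other tested genes for each, leaving out symbols that begin with LOC. Of these, within 0.1 of the profile lay 12 genes for ZP2, 258 for ZP3, 356 for ZP4, 11 for ASTL and 2 for IZUMO1R. The SD of the profile itself was 0.274, 0.096, 0.151, 0.273 and 0.440 (log2) in that order. These counts thus also depend on how much each gene varies. None of the nearest 3 of any of the 5 genes was another of the 5.

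Around these genes, 9 lists of companions of the egg coat, egg membrane and cortical granules and of cell type markers held 179 genes, of which 163 were in the files and 112 had a mean of at least 1 FPKM. By limma 0 of the 112 passed the adjusted threshold. The mean was higher in the libraries labelled siMTFP1 for 72 of them (64.3%, against 54.2% of all genes tested) and lower for 40. Their median log2 difference was 0.06, against 0.02 over all genes tested. Before adjustment, 7 had p-values under 0.05, of which 4 (CD151, DAZL, VIM and INHA) were higher and 3 (CD59, CD55 and STXBP3) lower, which is 3.57% and 2.68% of the companions against 3.86% and 2.66% of all genes tested. The groups did not overlap in 11 companions, 5 of them higher (CD151, NOBOX, STX4, NAPA and RPN1, 4.46%) and 6 lower (CD59, CD55, STXBP3, SNAP23, RAB8B and SOHLH2, 5.36%). These shares without overlap lie near the 5.97% (higher) and 5.05% (lower) of all genes tested.

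**Figure D4:**
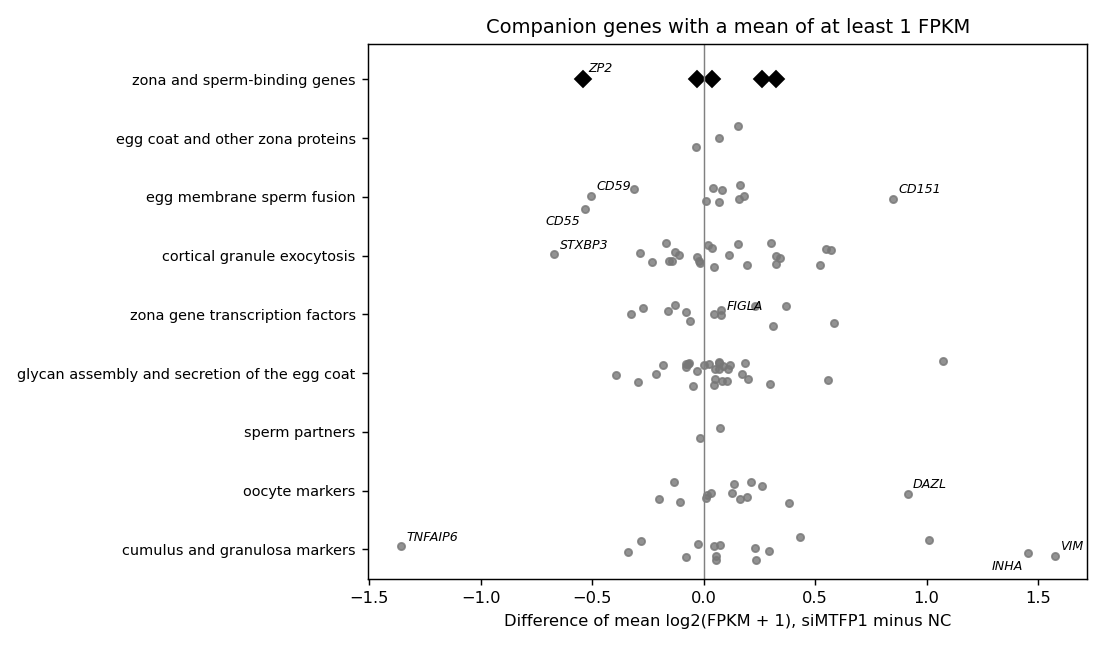
Difference of mean log2(FPKM + 1), siMTFP1 minus NC (horizontal axis), for the 5 genes (black diamonds) and for the companions in each list with a mean of at least 1 FPKM (grey points, shifted vertically at random for sight). Most companions lie close to 0, CD55, CD59 and STXBP3 lie near ZP2 on the lower side, CD151 and DAZL lie on the higher side, and a few scarce markers lie farther out.

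The list of egg coat and other zona proteins held 14 genes, of which only 7 were in the files. The most abundant transcript of these 7 was that of TECTB, whose product has a ZP domain. This gene encodes beta-tectorin, known from the tectorial membrane of the inner ear, and averaged 159 ± 12.6 FPKM in the libraries labelled siMTFP1 and 151 ± 5.35 FPKM in those labelled NC (SD, n = 3 each), below the level of ZP3 in every library. OIT3 averaged 7.76 ± 1.05 FPKM in the libraries labelled siMTFP1 and 6.85 ± 0.728 FPKM in those labelled NC. Oviductal glycoprotein OVGP1, which coats the zona after ovulation, was at 0.03 FPKM at most, and the other astacin proteases MEP1A, BMP1, TLL1 and TLL2 at 0.39 FPKM at most. TGFBR3, a coreceptor for transforming growth factor beta, averaged 5.14 ± 0.465 FPKM in the libraries labelled siMTFP1 and 5.27 ± 0.0819 FPKM in those labelled NC. ZP1 was on the list but was not matched by symbol in the files, so it could not be analysed. The list had 3 tested members, and 0 of them were under 0.05 before or after adjustment. Before adjustment 3.86% (higher) and 2.66% (lower) of all genes tested were.

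On the egg membrane, the tetraspanins CD9 and CD81, which take part in sperm fusion in mice, were at similar levels in both groups. CD9 averaged 49.8 ± 13.5 FPKM in the libraries labelled siMTFP1 and 43.8 ± 7.33 FPKM in those labelled NC, and CD81 averaged 192 ± 13.2 FPKM in the libraries labelled siMTFP1 and 184 ± 28.3 FPKM in those labelled NC (SD, n = 3 each). The integrin subunit gene ITGB1, next to CD81 in abundance, averaged 88.8 ± 4.61 FPKM in the libraries labelled siMTFP1 and 86.45 ± 7.17 FPKM in those labelled NC. The genes with the smallest p-values of the 11 tested in this list were CD151, CD59 and CD55. CD59 and CD55, complement regulators that carry a glycosylphosphatidylinositol anchor as JUNO does, were lower in the libraries labelled siMTFP1 without overlap. CD59 had 61.3, 50.2 and 66.2 FPKM in the libraries labelled siMTFP1, against 82.7, 86.0 and 83.3 FPKM in those labelled NC, or -0.51 on the log2 scale (SE 0.14) with a limma adjusted p = 0.638. CD55 had 40.0, 27.3 and 28.5 FPKM in the libraries labelled siMTFP1, against 44.0, 44.3 and 49.7 FPKM in those labelled NC, or -0.53 on the log2 scale (SE 0.17) with a limma adjusted p = 0.698. CD151, a further tetraspanin, was at 4.83 ± 1.37 FPKM in the libraries labelled siMTFP1 and 2.19 ± 0.255 FPKM in those labelled NC, higher without overlap (limma adjusted p = 0.583). None of the 3 passed the adjusted threshold. Of the 11 tested, 1 (9.09%) was higher and 2 (18.2%) lower without overlap, against 5.97% and 5.05% of all genes tested. The folate receptor genes FOLR1, FOLR2 and FOLR3, relatives of IZUMO1R, were at 0.55 FPKM at most in any library.

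The machinery of cortical granule release, which delivers ovastacin, had 24 tested members, of which 13 were higher and 11 lower in mean in the libraries labelled siMTFP1. Its most abundant members were the traffic GTPase RAB11A, at 568 ± 8.35 FPKM in the libraries labelled siMTFP1 and 626 ± 83.1 FPKM in those labelled NC, and the vesicle fusion protein VAMP7, at 242 ± 30.2 FPKM in the libraries labelled siMTFP1 and 284 ± 32.6 FPKM in those labelled NC (SD, n = 3 each). The smallest p of the list was that of STXBP3, a regulator of syntaxins. It had 44.8, 38.6 and 52.7 FPKM in the libraries labelled siMTFP1, against 71.55, 68.2 and 77.0 FPKM in those labelled NC. The groups did not overlap, and the log2 difference was -0.67 (SE 0.15, limma adjusted p = 0.583). SNAP23, the membrane fusion protein of cortical granule release in mouse eggs, was at 87.7 ± 1.92 FPKM in the libraries labelled siMTFP1 and 97.1 ± 6.96 FPKM in those labelled NC, without overlap but with a log2 difference of only -0.14 (limma adjusted p = 0.892). The GTPase RAB8B, at 5.35 ± 0.171 FPKM in the libraries labelled siMTFP1 and 6.76 ± 0.672 FPKM in those labelled NC, was also lower without overlap (limma adjusted p = 0.812). Higher without overlap were STX4, a syntaxin, at 2.99 ± 0.246 FPKM in the libraries labelled siMTFP1 and 2.26 ± 0.487 FPKM in those labelled NC (limma adjusted p = 0.835), and NAPA, which takes part in the release of fused vesicle proteins. NAPA averaged 1.36 ± 0.0404 FPKM in the libraries labelled siMTFP1 and 0.907 ± 0.371 FPKM in those labelled NC (SD, n = 3 each, limma adjusted p = 0.836). The vesicle fusion protein VAMP8 had the smallest p after STXBP3, with 11.3, 22.7 and 25.1 FPKM in the libraries labelled siMTFP1, against 12.3, 12.6 and 12.45 FPKM in those labelled NC, and its groups overlapped. Of the 24 tested, 2 (8.33%) were higher and 3 (12.5%) lower without overlap, against 5.97% and 5.05% of all genes tested.

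Oocyte transcription factors and their partners, FIGLA among them, went both ways, with 7 of 13 tested higher and 6 lower in mean. FIGLA had 93.8, 173 and 214 FPKM in the libraries labelled siMTFP1, against 146, 150.5 and 134 FPKM in those labelled NC. Its siMTFP1 libraries spanned the NC range, and the log2 difference of 0.08 (SE 0.27) was 0.42 without siMTFP1 1 and -0.17 without siMTFP1 3. The homeobox factor NOBOX was scarce, at 2.31 ± 0.448 FPKM in the libraries labelled siMTFP1 and 1.67 ± 0.250 FPKM in those labelled NC (SD, n = 3 each), higher without overlap (limma adjusted p = 0.828). SOHLH2, lower without overlap (limma adjusted p = 0.894), was at 132 ± 2.91 FPKM in the libraries labelled siMTFP1 and 144 ± 5.62 FPKM in those labelled NC. ID3, an inhibitor of E-box binding proteins, was among the most abundant transcripts of the oocyte, at 15394 ± 1247 FPKM in the libraries labelled siMTFP1 and 14558 ± 241 FPKM in those labelled NC. TCF12, an E-box binding factor, averaged 10.75 ± 1.49 FPKM in the libraries labelled siMTFP1 and 13.9 ± 3.13 FPKM in those labelled NC, and ID2, of the same family as ID3, averaged 8.11 ± 1.72 FPKM in the libraries labelled siMTFP1 and 6.31 ± 2.75 FPKM in those labelled NC, both with overlapping groups. In this list 0 of 13 members were under 0.05 before adjustment, against 3.86% (higher) and 2.66% (lower) of all genes tested. Without overlap, 1 (7.69%) was higher and 1 (7.69%) lower, against 5.97% and 5.05% of all genes tested.

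Genes that build, glycosylate and export secreted proteins had 29 tested members, of which 19 were higher and 10 lower in mean. Of all genes tested, 54.2% were higher, and before adjustment 3.86% (higher) and 2.66% (lower) were under 0.05. Of these 29, 65.5% were higher and 0 were under 0.05 before adjustment. The most abundant were SEC61B, a subunit of the protein channel into the endoplasmic reticulum, at 1545 ± 325 FPKM in the libraries labelled siMTFP1 and 1471 ± 21.4 FPKM in those labelled NC, and OST4, of the oligosaccharyltransferase, at 647 ± 146 FPKM in the libraries labelled siMTFP1 and 561 ± 62.4 FPKM in those labelled NC (SD, n = 3 each). FURIN, the protease of that trimming, was at 14.97 ± 0.838 FPKM in the libraries labelled siMTFP1 and 14.05 ± 1.43 FPKM in those labelled NC. The oligosaccharyltransferase subunit RPN1 was at 65.1 ± 2.81 FPKM in the libraries labelled siMTFP1 and 53.1 ± 7.87 FPKM in those labelled NC, higher without overlap (limma adjusted p = 0.789). Of the glycosyltransferases, ST3GAL4 averaged 6.06 ± 2.58 FPKM in the libraries labelled siMTFP1 and 2.82 ± 2.84 FPKM in those labelled NC, and C1GALT1 averaged 4.22 ± 1.47 FPKM in the libraries labelled siMTFP1 and 5.71 ± 1.10 FPKM in those labelled NC, both with overlapping groups. Transcripts of the sperm side were mostly at or near 0, and IZUMO1 did not exceed 0.02 FPKM and SPAM1 did not exceed 0.05 FPKM. Above 1 FPKM on average were only, of the 9 in the files, the zona-binding proteins ZPBP, at 24.7 ± 1.84 FPKM in the libraries labelled siMTFP1 and 23.4 ± 1.54 FPKM in those labelled NC, and ZPBP2, at 5.49 ± 1.19 FPKM in the libraries labelled siMTFP1 and 5.63 ± 1.63 FPKM in those labelled NC (SD, n = 3 each).

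Among the markers, the oocyte list had 11 of 14 members with a higher mean in the libraries labelled siMTFP1 (78.6%, against 54.2% of all 9730 genes tested). The mean log2 level of the list was also higher in these libraries, without overlap. Taken singly, 0 of the 14 had groups that stood apart, against 5.97% (higher) and 5.05% (lower) of all genes tested. Before adjustment 1 (7.14%) was under 0.05 in the higher direction, against 3.86% of all genes tested. That one was the RNA-binding protein gene DAZL, at 54.9 ± 10.2 FPKM in the libraries labelled siMTFP1 and 30.3 ± 14.7 FPKM in those labelled NC (limma adjusted p = 0.698). Next by p were PADI6, a protein of the cytoplasmic lattices, at 11.2 ± 0.241 FPKM in the libraries labelled siMTFP1 and 8.51 ± 2.27 FPKM in those labelled NC, and the importin gene KPNA7, at 1952 ± 194 FPKM in the libraries labelled siMTFP1 and 1699 ± 77.9 FPKM in those labelled NC. The most abundant, OOSP2 and BTG4, averaged 11197 ± 1557 and 9631 ± 463 FPKM in the libraries labelled siMTFP1 and 10865 ± 204 and 10610.2 ± 1322 FPKM in those labelled NC (SD, n = 3 each). The growth factor BMP15, secreted by the oocyte, had 3032, 2823 and 2399 FPKM in the libraries labelled siMTFP1, against 2775, 3123 and 2319 FPKM in those labelled NC. It was lowest in the library of number 3 of each group, as was ZP4. Of the cumulus and granulosa markers, 11 of 16 tested were higher and 5 lower in mean (68.75% higher). In 0 of them did the groups stand apart, against 5.97% (higher) and 5.05% (lower) of all genes tested. The most abundant, STAR and HAS2, averaged 66.5 ± 1.94 and 45.1 ± 6.89 FPKM in the libraries labelled siMTFP1 and 64.8 ± 9.28 and 37.95 ± 3.61 FPKM in those labelled NC. The genes with the smallest p went both ways. Higher in mean were VIM, at 8.36 ± 4.80 FPKM in the libraries labelled siMTFP1 and 2.77 ± 3.40 FPKM in those labelled NC, and INHA, at 7.87 ± 7.21 FPKM in the libraries labelled siMTFP1 and 1.54 ± 0.771 FPKM in those labelled NC (SD, n = 3 each, limma adjusted p = 0.750 for both). Lower in mean was TNFAIP6, which acts in the cumulus matrix, with 1.06, 2.84 and 1.16 FPKM in the libraries labelled siMTFP1, against 5.31, 1.51 and 17.1 FPKM in those labelled NC (limma adjusted p = 0.766). The size of these 3 differences varied with the library left out. That of VIM was 1.57 on the log2 scale, from 1.05 without NC 2 to 2.28 without NC 1, that of INHA was 1.46, from 0.80 without siMTFP1 2 to 2.19 without siMTFP1 3, and that of TNFAIP6 was -1.36, from -2.05 without NC 2 to -0.63 without NC 3. The part of these cells in the ZP2 difference was not tested.

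**Figure D5:**
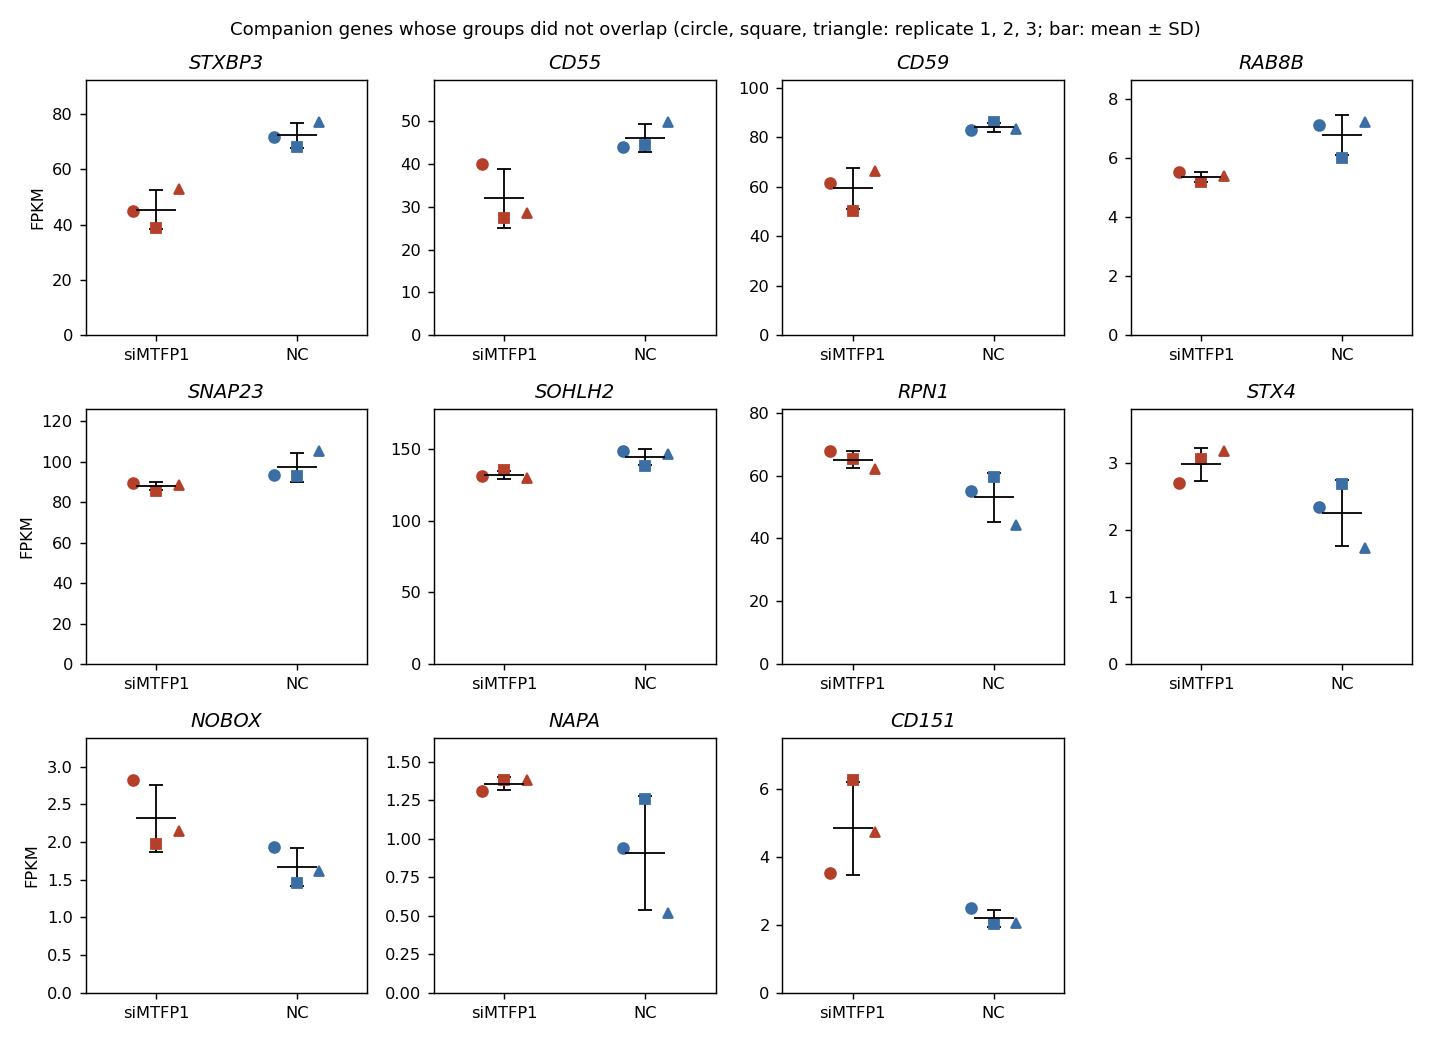
FPKM (vertical axes, each from 0) of the 11 companions whose groups did not overlap, in the libraries labelled siMTFP1 (left, red) and NC (right, blue), with circles, squares and triangles for replicates 1, 2 and 3 and bars for the mean ± SD. Ordered by log2 difference, the 6 lower in the siMTFP1 libraries (STXBP3 to SOHLH2) come before the 5 higher ones (RPN1 to CD151), and none passed the adjusted threshold.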

How the data were processed

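The authors deposited an FPKM value with 2 decimals per gene and library, made from total RNA of oocytes with an mRNA library kit, per the labels' protocols. Per the submitters' processing notes the build was ARS-UCD1.2 and the tools were RSEM 1.3.1, HISAT2 2.2.1, DESeq2 1.4.5 and Bowtie2 2.3.4.3, with no role stated. The use of strand and the handling of shared reads are not given in the sources.

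Genes were matched by symbol and gene ID. Values were taken as log2(FPKM + 1), 9730 genes with a mean of at least 1 FPKM were kept, and siMTFP1 was compared with NC by limma 3.58.1, R 4.3.3 (trend, two-sided), with Benjamini-Hochberg adjustment over all of them at 0.05. Fold changes on this scale understate low genes. The SE of each difference is that of limma. The test was checked on data simulated with normal noise, for bias and for recovery of large added differences. Recovery of differences as small as that of ZP2 was not part of this check. Depth is unknown, so no counting interval is given. RefSeq ARS-UCD2.0, which matched 17087 of the IDs, served for names, neighbours and numbers of transcripts only. Python 3.11.15, scipy 1.17.1, pandas 2.3.3 and matplotlib 3.10.9 were also used.

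The members and lists were chosen with earlier results of these data known. Companions are named if among the 2 most abundant or the 3 smallest p of a list, or fixed by name (CD9, CD81, FIGLA, NOBOX, FURIN, OVGP1, ZP1); SNAP23, SOHLH2, STX4, NAPA, EFEMP1, BMP15, IZUMO1, SPAM1, FSHR, AMHR2, RPS29, the folate receptors and the remaining astacins were named after their values were seen. The settings varied were the pseudocount (0.1, 5), the filter (none, 5), the scaling, a replicate block, array weights and leaving out each library.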

Additional observations from a re-analysis of the deposited data

How the results depend on the processing

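The log2 difference of ZP2 was negative under every setting run, from -0.58 with median-ratio scaling to -0.47 with quantile normalization. That last value lay farthest from the main one of -0.54 (SE 0.09), and the cause was not tested. Those of ZP3 (-0.05 to 0.10) and ZP4 (-0.15 to 0.05) changed sign between settings, ZP3 with array weights (-0.02) among them. ASTL stayed positive (0.07 to 0.41), and IZUMO1R ran from -0.03 to 0.59. The number of genes past the adjusted threshold, 0 with all libraries, was 2 with a minimum mean of 5 FPKM, 2 with FPKM rescaled to equal sums, and 0 to 2 when a library was left out; of the companions 0 passed under any setting run. Companions under 0.05 before adjustment in the higher direction numbered 4, against 2 with the minimum of 5 FPKM, 2 with a replicate block, 7 with array weights and 1 to 10 without a library. In the lower direction they numbered 3, and 3 to 6 without a library. The difference of MTFP1 was positive throughout (0.09 to 0.96). Its exact permutation p was 0.2 to 0.8 without a library, the smallest possible then being 0.2. Deviations from the group mean correlated across 9730 genes at 0.034, -0.163 and 0.067 between same-numbered libraries. Between libraries of different number the correlations ran from -0.26 to 0.23. With 3 libraries per group this cannot decide whether the numbers pair libraries. With the replicate block the ZP2 difference was -0.54. The unknown depth limits what can be said of the scarce transcripts.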
